A study of Mus musculus with 144 samples.

Results

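Transcript levels of 9 heat shock chaperone genes (Hspa1a, Hspa1b, Hspa8, Hsph1, Dnajb1, Bag3, Hspb1, Hspd1 and Hspe1) were followed in mouse hepatocytes treated with TCDD, a chlorinated dioxin and the prototype ligand of the aryl hydrocarbon receptor (AHR). The 9 genes were chosen by symbol, matched to Ensembl identifiers, and read from the count files of all libraries, which hold 55359 genes, 52083 of them with a symbol here. Primary hepatocytes were isolated by collagenase perfusion from male mice aged 28 days, either wild-type C57BL/6NCrl or homozygous for a CRISPR-Cas9 deletion of an intronic dioxin response element (DRE) of Pkm, the pyruvate kinase gene (PkmΔDRE, called DRE-null below, backcrossed to C57BL/6N). After a 3 h attachment on type I collagen, cells of both genotypes received DMSO vehicle or 10 nM TCDD in Williams' E medium with 100 nM dexamethasone, which every group shared, and were harvested at 9 times, 2, 4, 8 and 12 h on the first day and every 24 h from 24 to 120 h. The 36 groups had 4 libraries each, with 13588848 to 30719161 read pairs on genes per library (median 18011825). The labels name no animal or hepatocyte isolation, so p-values measure the spread between these libraries only, and the genotype label and the isolation cannot be told apart.

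Heat shock chaperones bind unfolded or aggregation-prone proteins and return them to a folding pathway or to degradation. HSF1 drives most of their stress-induced transcription by binding heat shock elements, inverted repeats of the 5-base unit nGAAn upstream of the start site. HSP70 proteins (Hspa1a and Hspa1b, the stress-inducible pair, and Hspa8, the constitutive Hsc70) do the ATP-driven binding, J-domain proteins such as Dnajb1 (Hsp40) stimulate their ATPase, and Hsph1 (Hsp110) and Bag3 exchange their nucleotide. Hspb1 (Hsp27) holds unfolded proteins without ATP, and Hspd1 (Hsp60) with its lid Hspe1 (Hsp10) forms the folding chamber of the mitochondrial matrix. HSP90 and its partners keep the unliganded AHR in the cytosol, and ligand-bound AHR acts through the DRE core GCGTG.

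The sequences upstream of the members are shown first, because Hspa1a and Hspa1b, and Hspd1 and Hspe1, shared upstream stretches. Windows of 250 bases before each start came from RefSeq, build GRCm38.p6, which had 11 windows for 8 of the 9 members and none for Hspa8. Both strands were searched for a heat shock element of 3 units (GAANNTTCNNGAA or TTCNNGAANNTTC), one of 2 units (GAANNTTC or TTCNNGAA, which the longer motif contains) and the DRE core (GCGTG or CACGC). A match is a description of letters and not a bound site. In the lines below the matched heat shock element is in capitals, each sequence runs 5′ to 3′ along the strand given, and each stretch lies within the 250 bases upstream of a start.
Hspa1a, chr17:34972243-34972270, minus strand: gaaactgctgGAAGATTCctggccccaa
Hspa1b, chr17:34959325-34959352, minus strand: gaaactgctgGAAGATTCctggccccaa
Hsph1, chr5:149636352-149636379, minus strand: ggtagaatctTTCTCGAAggctcgagaa
Hspb1, chr5:135887792-135887839, plus strand: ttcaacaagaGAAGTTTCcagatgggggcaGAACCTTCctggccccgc
Hspd1 and Hspe1, chr1:55087933-55088147, plus strand: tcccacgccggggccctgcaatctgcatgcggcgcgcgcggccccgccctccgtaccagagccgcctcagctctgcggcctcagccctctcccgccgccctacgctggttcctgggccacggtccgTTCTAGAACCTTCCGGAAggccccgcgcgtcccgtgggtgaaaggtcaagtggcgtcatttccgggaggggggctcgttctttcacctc

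The last line is the whole interval of 215 bases between the start of Hspe1 and the nearer of the 2 RefSeq starts of Hspd1, which are transcribed in opposite directions. The other Hspd1 start lies beyond the Hspe1 start, and its window held no heat shock element. Among the members the 3-unit element lay in the Hspe1 window and that 1 of the 2 Hspd1 windows alone, and in 0.466% of all 32851 windows. The 2-unit element lay in the windows of 6 members and in 12.8% of all windows. The DRE core was found for 4 members (Dnajb1, Bag3, Hspd1 and Hspe1) and in 28.2% of all windows. The 250-base windows of Hspa1a and Hspa1b were identical at 247 bases (98.8%), and 38.1% of the 150-base windows of the Hspa1a transcript also occurred in Hspa1b, so pairs from the 2 genes were partly interchangeable to the aligner.

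Several libraries stood against their labels. Pkm, the edited gene, read 41.8 to 80.8 CPM (the count scaled to library size, with the trimmed mean of M values as normalization) in the 8 h vehicle libraries labelled WT and 29.3 to 62.6 CPM with TCDD, but 37.8 to 81.5 and 109.2 to 169.0 CPM under the DRE-null label. At 8 h the summed Pkm count, which does not separate the transcripts of the gene, was thus higher with TCDD under the DRE-null label and not under the WT label. The genotypes are therefore given below as the libraries labelled WT and labelled DRE-null. Cyp1a1, the AHR marker gene, read 3290 and 1720 CPM in vehicle libraries 21 (WT, 48 h) and 31 (WT, 96 h), and 1.15 and 29.2 CPM in TCDD libraries 40 (WT, 2 h) and 64 (WT, 72 h), each outside the range of its group. Of the vehicle libraries labelled DRE-null, library 80 at 4 h and library P172_104 at 96 h stood against their hours. The summed level of 7 hepatocyte markers was 11400 CPM in library 80 against 95100 to 139000 in the 15 other 4 h libraries, and 109000 CPM in library P172_104 against 7080 to 28500 in the 15 other 96 h libraries. Counts of called members that use these libraries are given with and without them. Group means, ratios, correlations and the gene lists at the end used all libraries.

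The members differed widely in level. Per kilobase of exon, the median over all libraries was 578 RPKM for Hspa8, 276 for Hspb1, 78.9 for Hspe1, 72.0 for Hspd1, 61.3 for Bag3, 19.7 for Dnajb1, 7.87 for Hsph1, 6.38 for Hspa1b and 0.423 for Hspa1a. Hspe1 exceeded Hspd1 in 78 libraries, Hspd1 exceeded Bag3 in 84 and Hsph1 exceeded Hspa1b in 94, so these neighbours in the order did not separate. Bag3 exceeded Dnajb1, and Hspa1b exceeded Hspa1a, in every library. Hspa8 was also the steadiest, with a median coefficient of variation within groups of 13.6%, against 54.8% for Hspa1a. Hspa1a rested on a median of 24 read pairs per library and reached 0 in 1 library (WT, vehicle, 8 h), which allows up to 0.182 CPM at 3 pairs, a limit for counting error only. The strand-specific columns held 1.93 times the unstranded Hspa1a count, so its values are uncertain, and the source of the difference was not tested. All 9 members passed the filter on low counts in each comparison below.

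**Figure D1:**
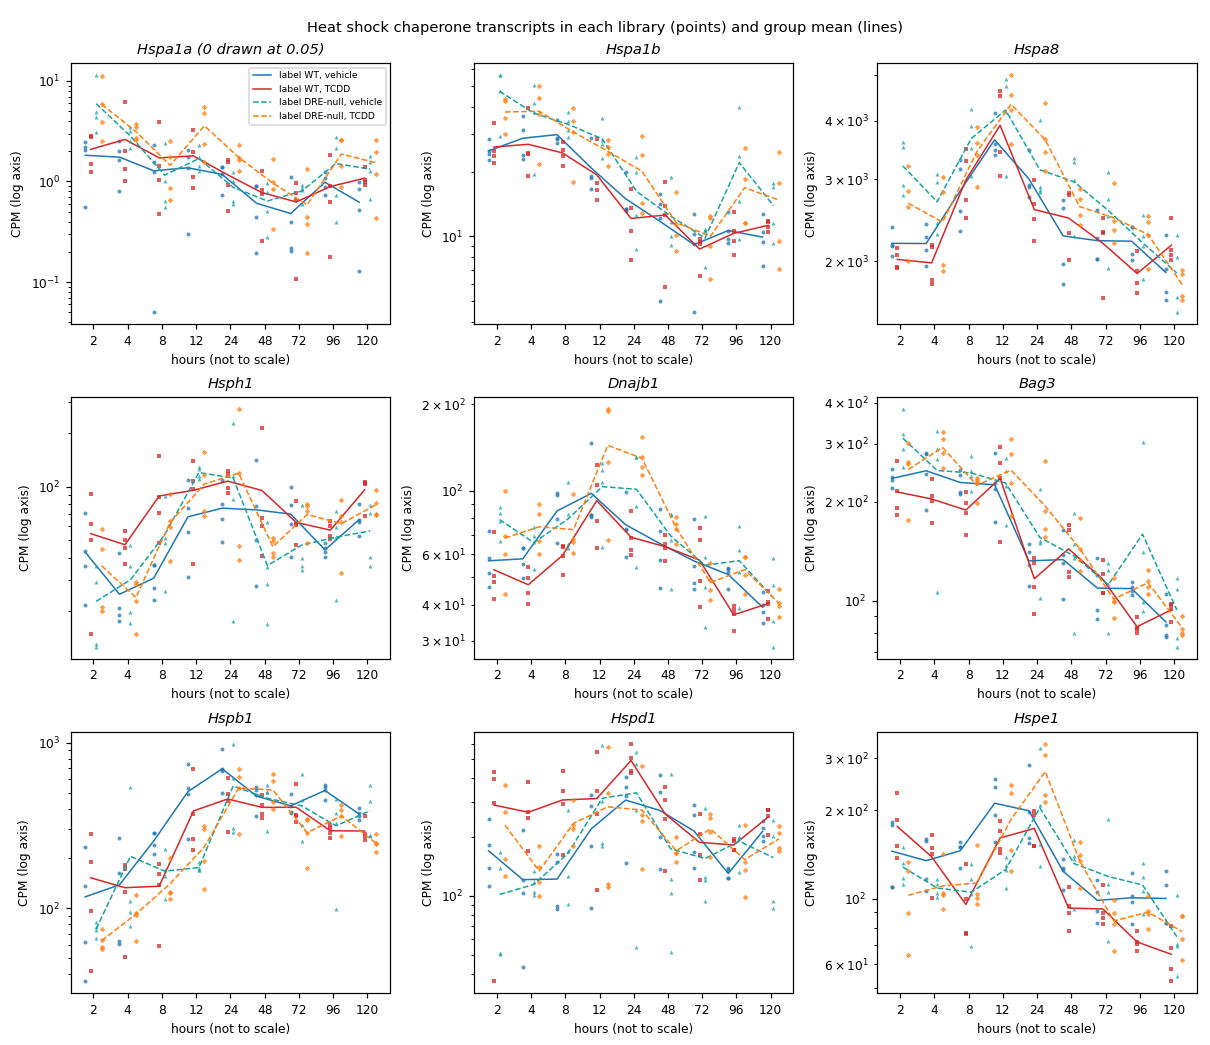
Level of each chaperone gene in every library. The vertical axes are CPM on a log scale and the horizontal axes are hours, not to scale. Points are libraries and lines join group means, blue for WT vehicle, red for WT with TCDD, teal for DRE-null vehicle and orange for DRE-null with TCDD. Hspb1 climbs to its highest group means at 24 h, Bag3 and Hspa1b decline, and single points out of line at 4 h and 96 h in the teal series are libraries 80 and P172_104.

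Whether TCDD changed chaperone transcripts was asked at each hour against time-matched vehicle with edgeR's quasi-likelihood test. A gene was called at a Benjamini-Hochberg adjusted p under 0.05 over all genes and a fold change of at least 1.5. Under the WT label at 8 h, 4 of 9 members were called, and 37.4% of all genes tested were called in that comparison. Hsph1 and Hspd1 rose, and Hspb1 and Hspe1 fell. Over all genes, 2950 of 12392 were called higher and 1690 lower. The count of called members is thus near the share over all genes, in either direction, and the values below only describe each member.

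Hsph1, the HSP110 nucleotide exchange factor, read 23.1, 26.9, 36.3 and 36.5 CPM in the vehicle libraries and 48.6, 71.6, 147.8 and 87.1 CPM with TCDD. Every TCDD library lay above every vehicle library. The log2 fold change was 1.499 (SE 0.285, adjusted p = 0.002041). Hspd1, the mitochondrial chaperonin, read 89.2, 85.4, 163.9 and 149.3 CPM in vehicle and 162.7, 293.7, 436.7 and 343.1 CPM with TCDD. The lowest TCDD library fell just under the highest vehicle library, and the other 3 lay above all vehicle libraries. Its log2 fold change was 1.31 (SE 0.279, adjusted p = 0.003138).

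Hspe1, the partner of Hspd1 across the upstream stretch shown, moved the other way. It read 156.0, 150.4, 149.6 and 126.98 CPM in vehicle and 130.9, 76.4, 75.85 and 100 CPM with TCDD. One TCDD library overlapped the lowest vehicle library. The log2 fold change was -0.64 (SE 0.178, adjusted p = 0.01197). Per kilobase, the ratio of Hspd1 to Hspe1 was 0.317 to 0.656 in the 4 vehicle libraries and 0.693 to 3.212 in the 4 TCDD libraries, without overlap.

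Hspb1, the ATP-independent small heat shock protein, read 212.9, 239.6, 283.2 and 283.8 CPM in vehicle and 185.9, 137.7, 59.1 and 161.0 CPM with TCDD. All TCDD libraries lay below all vehicle libraries, and the lowest of them was 1 library at 59.1 CPM. It fell by 0.94 on the log2 scale (SE 0.269, adjusted p = 0.01362). Dnajb1, the J-domain partner of HSP70, read 96.4, 98.1, 79.6 and 65.6 CPM in vehicle and 63.7, 63.9, 59.35 and 50.9 CPM with TCDD, again without overlap, as for 41.3% of all genes tested. Both that and the adjusted p held for 37.2%. Its log2 fold change of -0.55 (SE 0.163, adjusted p = 0.0163) passed the adjusted p, as 45.5% of all genes did, but not 1.5-fold, which it reached without library 11, 12 or 46 (-0.59, -0.66 and -0.59). Bag3, the nucleotide exchange factor that links HSP70 to autophagy, had a log2 fold change of -0.31 (SE 0.136, adjusted p = 0.07868). The 3 HSP70 genes did not pass, and Hspa1b read 27.3 to 34.8 CPM in vehicle and 21.4 to 27.65 CPM with TCDD.

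Library quality separated the same 8 libraries. The GC spread is the median of the most GC-rich bin of genes minus that of the most GC-poor bin. It was taken on log2 levels from which each gene's mean over all libraries had been subtracted. At 8 h it was 0.413 to 1.1 in vehicle and -1.29 to -0.105 with TCDD. The equivalent spread between long and short transcripts was -1.26 to -0.714 and -0.0677 to 1.01, and the share of pairs on no gene was 4.89 to 5.99% and 8.36 to 21.9%. Hspb1 is GC-rich at 61.7%, Hsph1, Hspd1 and Hspe1 lie between 45.5 and 47.3%, and Hspe1 and Hspb1 have short transcripts of 964 and 930 bases. With the GC trend of each library removed, Hsph1 (log2 1.04), Hspd1 (0.78) and Hspe1 (-1.24) were still called, Hspb1 (-0.51) was not, and Bag3 turned to 0.07. With the transcript length trend removed, Hsph1 (1.03) and Hspd1 (1.45) were still called, but Hspe1 (-0.14) and Hspb1 (-0.46) were not. Leaving out library 46 or 47, both TCDD, also ended the Hspe1 call (-0.55 and -0.54). The Hspb1 change was -1.03 without a call (adjusted p = 0.0573) when all libraries of the label shared 1 estimate of the spread. Whether quality had a part beyond these values was not tested.

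**Figure D2:**
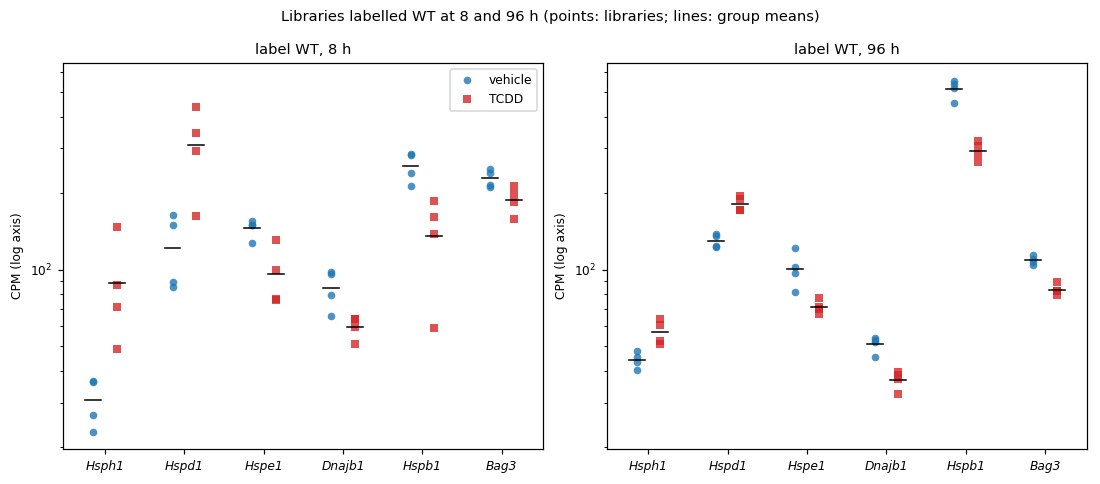
Levels of 6 chaperone genes in the libraries labelled WT at 8 h (left) and 96 h (right). The vertical axis is CPM on a log scale, blue circles are vehicle libraries, red squares are TCDD libraries and black lines are group means. Hsph1 and Hspd1 are higher with TCDD and Hspe1, Dnajb1, Hspb1 and Bag3 lower in the means of both panels, with no overlap for any of the genes at 96 h.

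In the 96 h libraries labelled WT, Hsph1, Hspd1, Hspe1, Dnajb1 and Hspb1 changed in the same direction as at 8 h, each by less. The Bag3 change was not smaller, with a log2 fold change of -0.33 against -0.31 at 8 h. At 8 h Bag3 had not passed the adjusted p (0.07868 by edgeR) and its groups had overlapped. Only Hspb1 was called, 1 of 9 members, where 15.1% of all genes were called. It read 537.0, 515.7, 450.1 and 553.6 CPM in vehicle and 264.6, 284.4, 305.9 and 320.3 CPM with TCDD, so that each TCDD library lay well below the lowest vehicle library. It fell by 0.75 on the log2 scale (SE 0.0898, adjusted p = 0.0003587), and by 0.815 without library 31, the vehicle library with high Cyp1a1, where 14.7% of all genes were called. Another 5 members passed the adjusted p without reaching 1.5-fold, and their groups did not overlap either. Of all genes tested, 32.8% passed the adjusted p, 33.8% had groups that did not overlap and 27.7% had both.

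Of those 5, Hspd1 read 123.3 to 138.4 CPM in vehicle and 171.4 to 194.4 CPM with TCDD, a log2 fold change of 0.54 (SE 0.0708, adjusted p = 0.0005502). Hsph1 followed at 0.43 (adjusted p = 0.005634). Hspe1 read 81.98 to 121.98 CPM in vehicle and 66.7 to 77.6 CPM with TCDD, a log2 fold change of -0.43 (SE 0.104, adjusted p = 0.009515). Dnajb1 stood at -0.41 (adjusted p = 0.009472) and Bag3 at -0.33 (adjusted p = 0.008898). The ratio of Hspd1 to Hspe1 per kilobase was 0.633 to 0.839 in vehicle and 1.232 to 1.626 with TCDD, the same order as at 8 h. Hspa8, at 2015 to 2375 CPM in vehicle and 1715 to 2110 CPM with TCDD, overlapped.

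The quality measures again differed between treatments at 96 h. The GC spread was -0.252 to 0.22 in vehicle and -1.15 to -0.672 with TCDD, and the length spread 0.0149 to 0.736 and 0.81 to 1.4. The Hspb1 change was -0.44 with the GC trend removed and -0.46 with the length trend removed, both under 1.5-fold. With the GC trend removed, Dnajb1 (-0.21, adjusted p = 0.172) and Bag3 (-0.032, adjusted p = 0.815) no longer passed, while Hspe1 (-0.609) was called. With the length trend removed, Hspe1 (-0.131, adjusted p = 0.231) and Bag3 (-0.215, adjusted p = 0.0851) no longer passed, while Hspd1 (0.673) was called. When all libraries of the label shared 1 estimate of the spread, Hspb1 was at -0.79 (adjusted p = 0.428) and none of the 6 genes passed, with adjusted p from 0.312 to 0.685.

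At the other 7 hours no member was called under the WT label by edgeR. Of all genes tested, 0% were called in the comparisons of 2, 4 and 72 h, and 0.0321%, 0.373%, 0.00763% and 1.46% in those of 12, 24, 48 and 120 h. At an unadjusted p under 0.05 there were 2 members at 4 h (Hsph1 0.89 and Hspd1 1.12), 3 at 24 h (Hspd1 0.75, Hsph1 0.58, Hspb1 -0.52), 1 at 48 h (Hspe1 -0.38) and 3 at 120 h (Hspe1 -0.63, Hsph1 0.56, Hspb1 -0.34), with log2 fold changes in brackets. Over all genes, 2126 of 12434 reached that p at 4 h and 1583 of 12858 at 24 h. The counts were 337 of 13105 at 48 h and 2310 of 14305 at 120 h. DESeq2 called Hspe1 at 120 h and no other member at these hours. Without library 71, the 120 h TCDD library with the lowest Hsph1 (68.4 CPM against 104.2 to 106.6), edgeR called Hspe1 (-0.75) and Hsph1 (0.70) there, against 3.95% of all genes. Without the libraries against their treatment labels, 40 at 2 h, 21 at 48 h and 64 at 72 h, 0 members were called, and 0%, 0.0519% and 0.0808% of all genes.

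Under the DRE-null label no member was called by edgeR or DESeq2 at any of the 9 hours, and 4 of 81 member and hour pairs had an unadjusted p under 0.05. These pairs were at 2, 12 and 120 h, where 1717 of 12132, 1190 of 12485 and 1069 of 14373 genes reached that p. Over all genes the share called was 0% for 2 and 4 h, 0.106%, 0.024% and 0.016% for 8, 12 and 24 h, 0.404% and 1.13% for 48 and 72 h, and 0.0793% and 0.633% for 96 and 120 h. Without libraries 80 and P172_104 the share at 96 h was 2.25%, and members called remained 0 at both 4 h and 96 h. One library decided the 72 h count. Without library 97, a vehicle library with Hsph1 at 78.96 CPM against 33.9 to 39.6 in the other 3, Hspd1 (log2 0.92) and Hsph1 (0.91) were called at 72 h, in a fit that called 14.4% of all genes. Single libraries also raised the share at other hours, to 7.67% at 2 h without library 74 and 1.83% at 48 h without library 94, with 0 members called in both fits.

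In the DRE-null libraries at 8 h Hsph1 read 51.8, 88.8, 48.5 and 25.8 CPM in vehicle and 38.1, 91.3, 64.01 and 59.2 CPM with TCDD, a log2 fold change of 0.24 (SE 0.371). The groups overlapped across nearly their whole range. Hspd1 read 126.1, 273.6, 169.9 and 90.7 CPM and 180.1, 310.3, 218.4 and 229.8 CPM, a log2 fold change of 0.51 (SE 0.320). Hspb1 read 171.4, 113.2, 156.9 and 229.0 CPM and 200.1, 113.1, 126.2 and 124.4 CPM (log2 -0.26, SE 0.222). Hspe1 stood at 69.5 to 131.1 and 96.2 to 152.4 CPM (log2 0.09, SE 0.210). Its 2 groups overlapped, as did those of Hspd1 and Hspb1.

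The difference between the responses, DRE-null minus WT, was tested directly as an interaction at each hour, and no member was called by edgeR or DESeq2. The share of all genes called was 0% at 2, 4, 8, 12, 24, 96 and 120 h, 0.00715% at 48 h and 0.00695% at 72 h. It rose to 4.27% at 24 h without library 92 and to 2.91% at 96 h without library P172_140, with 0 members called in both. Without libraries 21, 31, 40 and 64, or without libraries 80 and P172_104, 0 members were called at any hour. Of 81 pairs, 7 had an unadjusted p under 0.05, at 4, 8, 12, 96 and 120 h. Over all genes, 1186 of 13214, 2114 of 13333, 977 of 13469, 1930 of 14771 and 482 of 15324 reached it at these hours. At 8 h the members were Hsph1 (difference -1.37, SE 0.51, adjusted p = 0.292) and Hspe1 (0.61, SE 0.277, adjusted p = 0.3056). At 96 h they were Hspd1 (-0.92, SE 0.306, adjusted p = 0.2703) and Hspb1 (0.91, SE 0.416, adjusted p = 0.374), and without library P172_104 these were -0.91 (SE 0.294) and 0.57 (SE 0.202). A response past the threshold under 1 label and not under the other was therefore not shown to differ between them for any member.

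**Figure D3:**
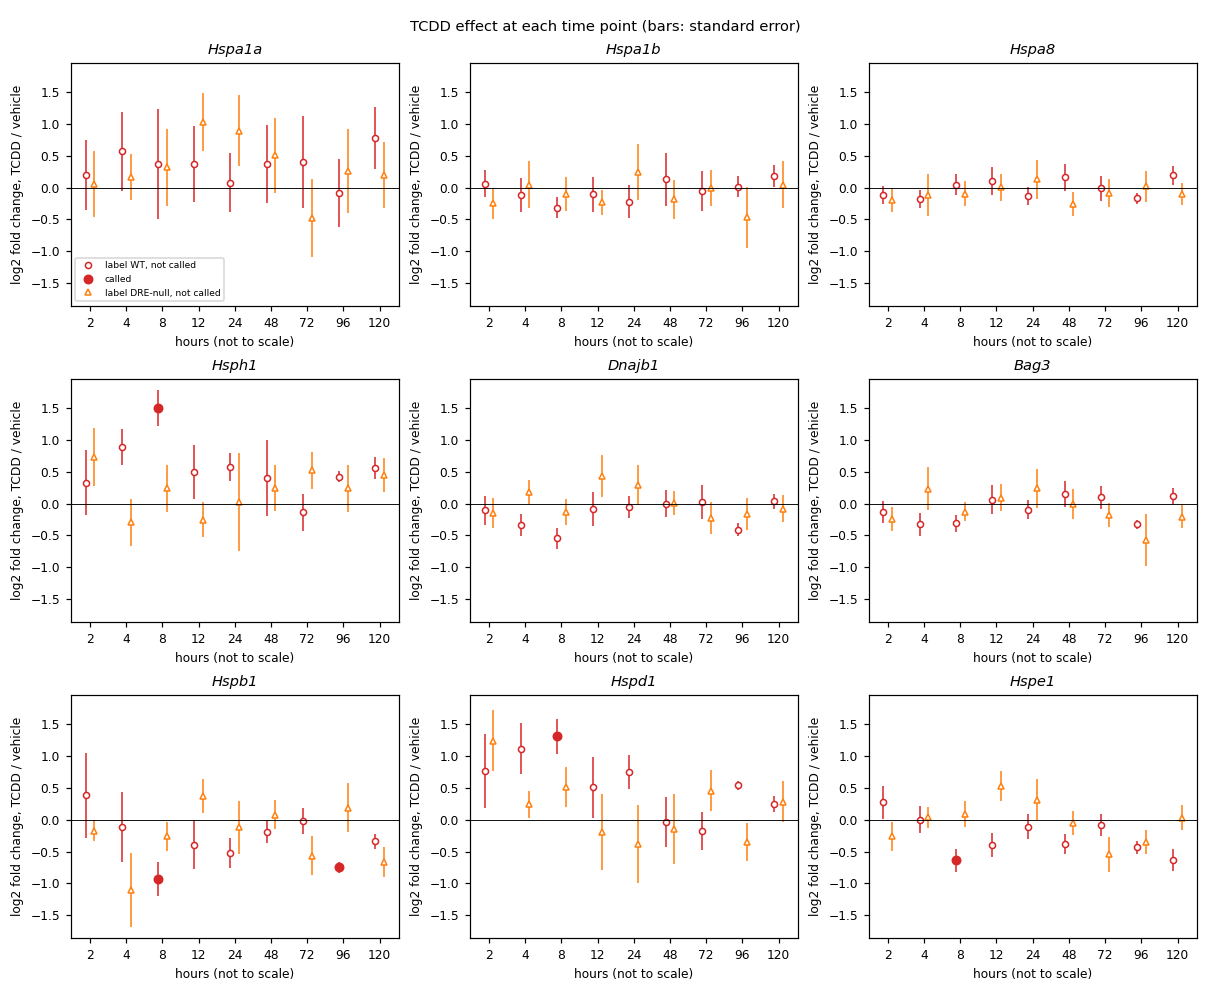
Effect of TCDD on each chaperone gene by hour. The vertical axes are log2 fold changes of TCDD over vehicle and the horizontal axes are hours, not to scale. Circles are the libraries labelled WT, triangles those labelled DRE-null, bars are standard errors and filled symbols are called. The 5 filled symbols are all WT, 4 at 8 h and 1 at 96 h.

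The members also changed with time in culture. Vehicle libraries at 8, 24, 72 and 120 h were each compared with 2 h in 1 fit per label, so the 4 contrasts of a label share their 2 h libraries. Hspb1 rose, Bag3, Hspa1b and Hspa1a fell, and Hspa8, Dnajb1 and Hspe1 passed for decreases at the late hours. Under the WT label 1, 3, 5 and 6 of 9 members were called at 8, 24, 72 and 120 h. The background was 15.9% of genes called higher and 16% lower for 8 h, 25.8% and 20% for 24 h, 31.1% and 22.8% by 72 h, and 33.4% and 24.5% by 120 h. The 8 h call, Hspb1 at log2 1.10, was lost without any 1 of libraries 3, 4, 10, 11 and 12 (0.79 to 1.125), and also without a filter on low counts (1.13), in a fit of its 8 libraries alone (1.12) and with the GC (0.73) or length trend (0.94) removed. At 120 h the calls were lost of Hspa1a (-1.70) without any 1 of libraries 1, 2, 3, 33 and 34 (-1.63 to -1.37) and of Dnajb1 without library 4 (-0.57). Without libraries 21 and 31, 1, 3, 5 and 6 members were again called, against 15.2% of genes higher and 15.5% lower, 25% and 19.5%, 30.3% and 22.3%, and 32.7% and 23.9%.

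The DRE-null label had 1, 6, 4 and 7 members called at the same hours. The background was 5.52% higher and 5.5% lower for 8 h, 18% and 15.2% for 24 h, 22.8% and 19.5% by 72 h, and 26.8% and 22.7% by 120 h. Libraries 80 and P172_104 entered these fits through the shared estimate of spread. Without them 2, 6, 5 and 7 members were called, as Hspb1 at 8 h (log2 1.16) and Dnajb1 at 72 h (-0.72) were added, against a background of 8.51% and 8.85%, 18.4% and 17.8%, 23.9% and 20.1%, and 27.5% and 23%.

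Hspb1 read 234.6, 135.4, 36.3 and 62.4 CPM at 2 h under the WT label, a wide spread, and 689.2, 916.8, 499.5 and 676.2 CPM at 24 h. Every 24 h library lay above every 2 h library. The log2 fold change was 2.42 (SE 0.425, adjusted p = 1.783e-05) at 24 h and 1.46 (SE 0.412, adjusted p = 0.002713) at 120 h. Under the DRE-null label it read 73.8, 82.5, 77.3 and 66.4 CPM at 2 h and 985.4, 290.5, 303.8 and 608.3 CPM at 24 h. The 24 h libraries were again all higher, 1 of them far above the others. The log2 fold change was 2.71 (SE 0.483, adjusted p = 0.000102) at 24 h and 2.18 (SE 0.473, adjusted p = 0.0004354) at 120 h. Its group mean was highest at 24 h in all 4 series of label and treatment, between 457.3 CPM (WT, TCDD) and 695.4 CPM (WT, vehicle), and lowest at 2 or 4 h.

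Bag3 read 232.1, 237.9, 220.3 and 250.8 CPM at 2 h and 78.5, 104.5, 84.6 and 77.5 CPM at 120 h under the WT label. The 2 groups were far apart and each was tight. It fell by 1.62 on the log2 scale (SE 0.171, adjusted p = 1.008e-09). Under the DRE-null label it read 289.7, 255.4, 381.4 and 321.0 CPM at 2 h and 108.6, 76.99, 72.5 and 117.3 CPM at 120 h, and fell by 1.93 (SE 0.351, adjusted p = 6.327e-05). The decrease was already called at 24 h, by 0.96 and 1.15 on the log2 scale under the WT and DRE-null labels. Adjusted for the percentage of unmapped pairs, the DRE-null decrease was not called at 24 h (-0.67, adjusted p = 0.168) or 72 h (-0.95, adjusted p = 0.109), and adjusted for that of pairs outside genes it was not called at 24 h (adjusted p = 0.0599). Libraries 80 and P172_104 read 106.5 and 304.5 CPM for Bag3, where the other 3 libraries of their groups held 269.9 to 328.9 and 93.2 to 140.5 CPM.

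Hspa1b, the inducible HSP70 with the higher count, read 24.9, 28.5, 24.1 and 22.7 CPM at 2 h and 10.3, 9.22, 4.43 and 12.7 CPM at 72 h under the WT label. The groups did not overlap. It fell by 1.63 on the log2 scale (SE 0.281, adjusted p = 9.328e-06) at 72 h and by 0.87 (adjusted p = 0.009177) at 24 h. Under the DRE-null label it read 29.5, 56.55, 47.5 and 56.59 CPM at 2 h and 7.24, 10.7, 10.8 and 10.55 CPM at 72 h, and fell by 2.44 (SE 0.38, adjusted p = 2.023e-05). Its lowest group mean was at 72 h in all 4 series of label and treatment.

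Hspa1a, its near-copy, read 4.36, 3.10, 4.86 and 11.5 CPM at 2 h and 0.867, 0.602, 0.827 and 0.919 CPM at 72 h under the DRE-null label. One 2 h library stood above the other 3, and the groups did not overlap. It fell by 3.05 on the log2 scale (SE 0.581, adjusted p = 0.0001551), and was already called at 8 h (log2 -2.39, adjusted p = 0.005061). Under the WT label its 2 h level was 0.555 to 2.47 CPM and its 72 h level 0.203 to 1.11 CPM, which overlapped, with a log2 fold change of -2.11 (SE 0.748, adjusted p = 0.01644) that was lost without library 25 or 26 and with the percentage of unmapped pairs (adjusted p = 0.106) or of pairs outside genes (0.0549) in the fit. With the counts of Hspa1a and Hspa1b added together, the sum fell by 1.66 (WT) and 2.50 (DRE-null) at 72 h on the log2 scale. At 8 h under the DRE-null label the sum was not called (log2 -0.66, adjusted p = 0.247).

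Hspa8, the constitutive HSP70, and Dnajb1, its J-domain partner, had another course. Their group means were highest at 12 h in all 4 series of label and treatment, though not clearly so for Dnajb1. With TCDD under the DRE-null label its mean was 143.6 CPM (SD 59.3) at 12 h and 129.6 CPM at 24 h. In vehicle Hspa8 reached 3640 ± 348 CPM (SD, n = 4) under the WT label and 4217 ± 839 CPM under the DRE-null label at 12 h, and its lowest means were 1894 ± 280 and 1889 ± 332 CPM at 120 h. Against 2 h it fell by 0.95 on the log2 scale under the DRE-null label at 120 h (SE 0.237, adjusted p = 0.001603), and the WT value of -0.38 (adjusted p = 0.02841) did not reach 1.5-fold. Dnajb1 reached 97.8 ± 32.1 and 103.2 ± 27.45 CPM in vehicle at 12 h and stood at 39.3 ± 4.12 and 42.2 ± 13.04 CPM at 120 h. It fell by 0.71 (adjusted p = 0.004967) and 1.10 (adjusted p = 0.003226) against 2 h.

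The mitochondrial pair parted in time as well. Hspe1 read 182.8, 178.7, 109.7 and 109.7 CPM at 2 h and 82.98, 124.2, 111.7 and 82.7 CPM at 120 h under the WT label, where the groups overlapped. It fell by 0.72 on the log2 scale (SE 0.215, adjusted p = 0.004542), a call lost without library 1 or 2 (-0.58 and -0.57), and by 0.98 (SE 0.277, adjusted p = 0.004432) under the DRE-null label, where they did not. With the length trend removed neither was called (-0.31 and -0.37). Hspd1 passed in 1 of these 8 contrasts, at 24 h under the DRE-null label, with a log2 fold change of 1.63 (SE 0.571, adjusted p = 0.02831). That group ran from 54.9 to 541.8 CPM, and the call was lost without any 1 of libraries 73, 75, 90 and 91. Hsph1 rose there as well, by 2.19 (SE 0.518, adjusted p = 0.00188), over libraries from 17.7 to 229.0 CPM.

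Cell composition and quality moved with time in the same libraries. The summed hepatocyte markers had a median of 160000 CPM in vehicle at 2 h and 8060 CPM at 120 h, so the hepatocyte label held in the early libraries and its defining transcripts declined. In bulk RNA, fewer hepatocytes and less of a transcript per hepatocyte cannot be told apart. The medians of 5 macrophage and 5 endothelial markers went from 208 to 35.4 and from 338 to 75.8 CPM. Those of 5 stellate or fibroblast and 4 cholangiocyte markers went from 1.74 to 47.8 and from 77.5 to 176 CPM, while 3 leukocyte markers summed to at most 2.31 CPM in any library. The length spread in WT vehicle was -1.35 to -0.464 at 2 h and 0.668 to 1.4 at 120 h, and unmapped pairs 8.07 to 14.5% and 3.83 to 5.4%. In fits adjusted for the percentage of unmapped pairs, or for that of pairs outside genes, the Hspe1 and Dnajb1 decreases at 120 h were not called under either label, nor was that of Hspa1a under the WT label, while Hspb1 at 24, 72 and 120 h and Bag3 and Hspa1b at 120 h were called under both.

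**Figure D4:**
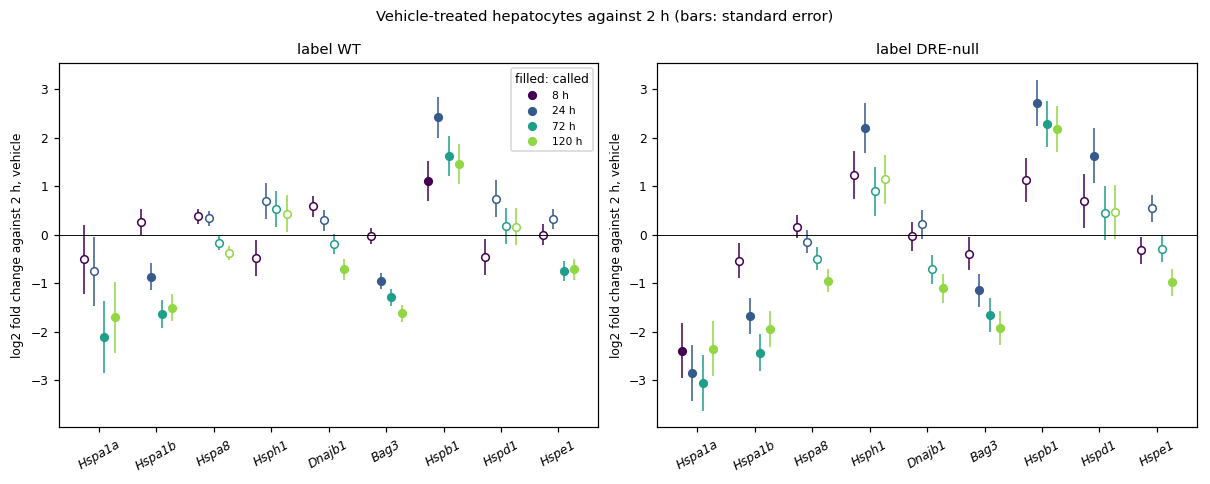
Vehicle-treated libraries at 8, 24, 72 and 120 h against 2 h, labelled WT (left) and DRE-null (right). The vertical axis is the log2 fold change, bars are standard errors, darker to lighter colours are earlier to later hours and filled symbols are called. Hspb1 lies above 0 at each hour in both panels, and Hspa1b and Bag3 lie below 0 from 24 h on.

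Vehicle libraries labelled DRE-null were also compared with those labelled WT, averaged over the hours from 2 to 12 h and over those from 24 to 120 h. No member was called in either by edgeR or DESeq2, nor without libraries 21 and 31. Of 18 values, 5 had an unadjusted p under 0.05 (4 early and 1 late). Over all genes, 2556 of 16973 reached that p early and 2545 late. The share of all genes called was 0.919% higher and 0.448% lower early, and 0.465% higher and 0.277% lower late. Hspa8 had a log2 difference of 0.36 early (SE 0.0935, adjusted p = 0.03552), under 1.5-fold. Without libraries 80 and P172_104, Hspb1 was called early at -0.84 (SE 0.189, adjusted p = 0.01132), and the share of all genes called was 0.481% and 0.573% early and 0.435% and 0.613% late. Library 80 alone decided this, since it read 540.8 CPM for Hspb1 where the other 3 libraries of its group held 77.9 to 110.5 CPM.

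Another 61 genes of the chaperone network were read from lists of HSF regulators, HSP90, other HSP70 and HSP110, J-domain proteins, small heat shock proteins, co-chaperones, the cytosolic chaperonin TRiC and mitochondrial partners. Under the WT label at 8 h, 26 of the 56 tested were called, 17 higher and 9 lower, against 37.4% of all genes (2950 of 12392 higher and 1690 lower). The lists were read from the fit without removal of the GC or length trend, on which these libraries separated. The median log2 fold change of the 56 was 0.06, and that of all genes tested was 0.004. Other HSP70 and HSP110 genes had 5 of 6 tested called, all higher, among them Hspa4l, an HSP110 relative (log2 2.68), Hspa13 (1.39) and Hspa4 (1.33). J-domain proteins had 5 of 9 called, all higher, with Dnajb4 at 1.32, Dnaja2 at 1.25 and Dnaja1 at 1.11. Hsp90aa1, the inducible cytosolic HSP90 and 1 of 3 HSP90 genes called, was at 1.47. Of the regulators, 3 of 4 were called, with the factor Hsf2 at 1.74 and Hspbp1, which binds HSP70, and Hsbp1, which binds HSF1, at -0.71 and -0.65.

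The small heat shock proteins had 2 of 4 called, both lower as Hspb1 was, Hspb6 at -1.16 and Hspb8 at -0.69. Co-chaperones had 4 of 17 higher and 3 lower, with Chordc1 (1.45) and the HSP90 partner Ptges3 (1.21) among the first. TRiC had 1 of 8 higher (Tcp1 0.60) and 1 lower (Cct7 -0.61), and of 5 mitochondrial partners the protease subunit Clpp alone was called, at -0.90. At 96 h 10 of 56 were called under the WT label, 7 higher and 3 lower, against 15.1% of all genes (1395 of 13793 higher and 690 lower). The trends were not removed here either. Higher were Hspa4l (1.29), Ahsa2 (0.78), Grpel2 (0.77), Hsp90aa1 (0.71), Dnajb4 (0.70), Dnaja1 (0.655) and Chordc1 (0.64), and lower were Cryab (-1.245), Bag2 (-0.635) and Cct7 (-0.59). Hspa4l was also called at 24 h (1.49) and the nucleotide exchange factor Grpel2 at 120 h (0.615). No other list gene was called by edgeR in a TCDD comparison of either label, in the interaction or between labels, where 28 of 509 gene and hour pairs (DRE-null), 33 of 511 (interaction) and 11 pairs between labels had an unadjusted p under 0.05.

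In vehicle 58 genes of the same lists were tested, and 19, 26, 25 and 28 were called at 8, 24, 72 and 120 h against 2 h under the WT label, and 7, 22, 21 and 24 under the DRE-null label. These shares were close to or below those of all genes given above. The lists were read without covariates and without removal of the GC or length trend. The length spread separated the 2 h and 120 h vehicle libraries under both labels, and its part in the values below was not tested. At 120 h Hspa4l was higher under both labels (log2 3.49 and 3.79), as were Hsp90aa1 (3.28 and 2.20), Hsf2 (2.48 and 1.87) and Cryab, a small heat shock protein (2.90 and 2.77). Hspa12b (4.67, SE 1.523) was called under the DRE-null label at a very low level, a mean of 0.508 CPM over all libraries. Dnajb4 (2.92 and 2.59) and Chordc1 (2.41 and 2.13) were also higher. Trap1, the mitochondrial HSP90, was lower (-1.65 and -1.91), as were the mitochondrial partners Grpel1 (-1.53 and -1.69) and Clpb (-1.33 and -1.62) and the small heat shock protein Hspb8 (-2.86 and -3.08). All 5 mitochondrial partners were called lower under each label.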

How the data were processed

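RNA-Seq was performed on 144 hepatocyte libraries, read as unstranded pairs. The submitters' processing notes name FastQC 0.11.3, Trimmomatic 0.39, STAR 2.7 and GRCm39. The authors deposited 1 file of raw counts per library, the uniquely mapped pairs per gene with no normalization, and the unstranded count column was used. The 4 lines naming no gene held 16.8% to 48% of pairs (median 24.2%) and were left out. Symbols, exon lengths and GC content came from GENCODE M21 (GRCm38), joined by Ensembl identifier, and promoters from RefSeq.

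Counts were tested with edgeR 4.0.16 (R 4.3.3; quasi-likelihood, TMM, filterByExpr with a minimum count of 10, robust fit), with Benjamini-Hochberg adjustment over all genes tested, on the groups given by the labels. The study's own test, a posterior probability on transformed counts, was not used because the deposited values are counts. DESeq2 1.42.0, other scaling, no filter, covariates, added Hspa1a and Hspa1b counts, other fits and libraries left out were alternatives. The GC and length trends and the fits without libraries 80 and P172_104 were chosen after seeing the data. Libraries are named by title (P172_ and a number) or by the number alone. Scripts were tested on simulated data. No 2 replicate libraries agreed within sampling noise (216 pairs).

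The 9 members and the gene lists were chosen with earlier results of these data known. All members are named, with up to 4 called genes per list and comparison, those of largest change. CPM were compared between libraries and RPKM between genes. More deeply counted members have less counting error, and no interval given here covers the variation between animals.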

Additional observations from a re-analysis of the deposited data

Results flagged for a closer look

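In 15 of 324 groups of 4 libraries (4.63%), 1 library of a member lay far from the other 3, with a gap over Dixon's critical share of the group's range, and chance gives about 1 in 20 such groups. Library 97 (DRE-null, vehicle, 72 h) accounted for 3 of them. It read 7.237 CPM for Hspa1b against 10.55 to 10.8 in the others, 78.96 CPM for Hsph1 against 33.92 to 39.61, and 280 CPM for Hspd1 against 94.76 to 125.6. Over the 2000 genes that varied most with hour, its profile correlated best with the mean of the 120 h libraries (0.969, against 0.922 for 72 h). Library P172_117 (DRE-null, TCDD, 8 h) read 200.1 CPM for Hspb1 against 113.1 to 126.2 and 152.4 CPM for Hspe1 against 96.16 to 103.6, while library P172_118 of the same group read 198.3 CPM for Bag3 against 230 to 236.1.

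Library 80 (DRE-null, vehicle, 4 h) read 540.8 CPM for Hspb1 against 77.93 to 110.5. Its profile correlated at 0.957 with the 96 h mean and at 0.244 with that of its own hour, and library P172_104 (96 h) correlated at 0.984 with the 4 h mean and at 0.284 with its own. Most libraries were closest to their own hour, 16 were closest to a neighbouring hour and 3 (80, 97 and P172_104) lay 2 or more steps away.

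Other single libraries were high. Hspa1b was 20.06 CPM in library 19 (WT, vehicle, 24 h) against 13.17 to 13.4. Hspa8 was 4010 CPM in library 92 (DRE-null, vehicle, 24 h) against 2815 to 2891, and Dnajb1 was 146 CPM in library 16 (WT, vehicle, 12 h) against 80.84 to 82.18. Hsph1 was 42.43 CPM in library 7 (WT, vehicle, 4 h) against 17.56 to 20.78 and 213.4 CPM in library 57 (WT, TCDD, 48 h) against 40.86 to 66.48. Hspb1 was 566.7 CPM in library 62 (WT, TCDD, 72 h) against 333.3 to 368.3. Low values were 6.522 CPM for Hspa1b in library 63 (WT, TCDD, 72 h) against 9.248 to 9.707 and 68.38 CPM for Hsph1 in library 71 (WT, TCDD, 120 h) against 104.2 to 106.6. The causes were not tested.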

How the results depend on the processing

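Across all alternatives, 24 of the 38 called pairs of member and comparison stayed called in every one and 14 lost the call in at least 1. For TCDD under the WT label (5 called), the count was 8 when adjusted for the percentage of pairs outside genes and 11 without the fold change threshold. Without that threshold, 45.5% of all genes passed at 8 h and 32.8% at 96 h. For the fits with that covariate or without a filter the share of all genes is not given here, so their counts of members have no background. Without a filter on low counts, 1 member was called for TCDD under the DRE-null label (Hspd1 at 2 h) and 1 in the interaction (Hsph1 at 8 h). With no fold change threshold 1 was called between labels (Hspa8, early), and 1 without libraries 80 and P172_104 (Hspb1, early). A single value changed direction, Bag3 under the WT label at 8 h, from -0.31 to 0.0734 with the GC trend removed. The cause was not tested.

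Leaving out 1 library at a time gave 4 to 7 calls for TCDD under the WT label, 0 to 2 under the DRE-null label, 0 to 0 in the interaction, 13 to 16 and 17 to 20 for time under the WT and DRE-null labels, and 0 to 1 between labels. In the time comparisons it added Hsph1 at 120 h (DRE-null, without library 74, 90, 92 or P172_105) and Dnajb1 at 72 h (DRE-null, 8 libraries, log2 -0.93 to -0.71), and under the WT label Hsph1 at 24 h (without library 1) and Dnajb1 at 8 h (without library 4, 11, 12 or 20). Several late decreases in Hspe1, Dnajb1 and Hspa1a ended with the covariates, as did Bag3 under the DRE-null label at 24 and 72 h.

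No paired analysis was possible because the labels give no replicate number, animal or isolation. With 4 libraries per group, Hspa1a rested on the fewest pairs, a median of 24 per library, with a median coefficient of variation within groups of 54.8%.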

Other observations

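The genes whose log2 CPM over the 36 group means followed each member most closely were ranked among 9324 genes by Pearson's r, given here as a description in which the group means share hours and libraries. Hspa1b ran closest to Slc10a6 (0.955), Slc25a44 (0.953) and Poldip3 (0.949), and Bag3 to Coq8b (0.978), Fitm2 (0.964) and Slc25a22 (0.964). Hspb1 ran closest to Atxn10 (0.958), Anxa2 (0.956) and Stat6 (0.954), and Dnajb1 to Bud31 (0.952) and the proteasome subunits Psmd4 (0.949) and Psmd3 (0.947). Hspd1 ran closest to the translation factor gene Eif2s3x (0.947), Tomm70a (0.943) and Tmx1 (0.89), while Hspe1 ran closest to the ribosomal protein genes Rpl17 (0.924) and Rpl9 (0.917) and to Naa10 (0.917). Hsph1 followed Xpnpep3 (0.945), Ints13 (0.928) and Spast (0.927), Hspa8 followed Oxnad1 (0.901), Ecd (0.899) and Mrpl49 (0.898), and Hspa1a followed Oser1 (0.834), Hspbap1 (0.828) and Jun (0.828).

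Among the members themselves, r was 0.903 for Hspa1b with Bag3, 0.895 for Hspa8 with Dnajb1, 0.837 for Hsph1 with Hspd1 and 0.816 for Hspa1a with Hspa1b. Hspd1 and Hspe1, which share an upstream interval, had an r of 0.224 over the same 36 means. Hspb1 ran opposite to Hspa1b (-0.803). Median ratios of Hspd1 to Hspe1 per kilobase at 8, 24 and 120 h follow, with the range over the libraries in brackets. In WT vehicle they were 0.465 (0.317 to 0.656), 1.079 (0.288 to 1.464) and 1.242 (0.907 to 1.487). In the WT TCDD series they were 2.029 (0.693 to 3.212), 1.509 (1.24 to 2.216) and 2.459 (1.408 to 2.703). Under the DRE-null label they were 0.757 (0.386 to 2.196), 1.357 (0.094 to 2.038) and 1.329 (0.509 to 2.047) in vehicle. With TCDD they were 1.273 (0.659 to 1.671), 0.548 (0.229 to 1.145) and 1.456 (1.08 to 1.742). The Hspd1 and Hspe1 transcripts differ in length (2423 and 964 bases), and the length spread ran from -2.21 to 1.75 over all libraries. Its part in the ratios and in the r of 0.224 was not tested.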
